A study of Mus musculus with 8 samples.

Results

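The genes described here carry pyruvate into mitochondria, turn it into acetyl-CoA, run the tricarboxylic acid (TCA) cycle and exchange its intermediates with the cytosol. They are 38 genes chosen by name from the steps of these pathways, without succinate dehydrogenase, out of 56691 genes in a table of RNA sequencing counts from mouse cerebellum. The table held 8 libraries, each from a single mouse, of which 4 came from *Atm* +/+ mice (*Atm*-WT, 2M, 7M, 13M and 32M) and 4 from *Atm* -/- mice (*Atm*-KO, 1M, 7F, 11M and 12M). ATM is the DNA damage kinase that is lost in ataxia-telangiectasia, a disease in which the cerebellum degenerates. By the methods of the study the knockout carried the Atmtm1Bal allele in the germ line on a mixed B6 and 129S4 background, and the mice were littermates aged 6 months. The labels give no treatment for any mouse. The labels carry the letter F for mouse 7F alone and M for all others, so the *Atm*-WT group had no mouse of that label.

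Pyruvate made in the cytosol crosses the inner mitochondrial membrane through the carrier MPC and is oxidised by the pyruvate dehydrogenase (PDH) complex, which PDH kinases switch off and PDH phosphatases switch on. Citrate synthase joins the acetyl group to oxaloacetate, and the dehydrogenases of the cycle then pass electrons to NAD for the respiratory chain. Carriers of the SLC25 family and malate dehydrogenases of the cytosol and mitochondria form the malate-aspartate shuttle, by which neurons move reducing equivalents into mitochondria, while pyruvate carboxylase, which refills the cycle, is best known in brain from astrocytes.

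All 38 genes are protein-coding, and all passed the filter on low counts, with 217 to 43462 counts per gene and library. Libraries held 65967130 to 88030300 counts. Values are CPM, counts in relation to the TMM-normalized library size, and folds are *Atm*-KO over *Atm*-WT by the quasi-likelihood method of edgeR, adjusted after Benjamini and Hochberg over the 22423 genes tested. *Atm* itself, the targeted gene, had 59.0 to 80.0 CPM among *Atm*-WT and 41.1 to 51.1 CPM among *Atm*-KO mice, with reads left in every *Atm*-KO library (log2 fold change −0.66, adjusted p = 0.0775 in edgeR). Several measures of library composition differed with genotype. The share of counts on TEC genes, an annotation class of unverified transcripts, was 0.204% to 0.333% among *Atm*-WT and 0.354% to 0.529% among *Atm*-KO libraries (two-sided exact permutation p = 0.0286, n = 4 each, the smallest p that 4 against 4 allow). The share on protein-coding genes, the class of all 38, was 96.63% to 97.33% among *Atm*-WT and 95.76% to 96.59% among *Atm*-KO libraries, narrowly without overlap (exact permutation p = 0.0286), and that on genes of the mitochondrial genome, none of which is among the 38, was 0.903% to 1.199% and 0.565% to 0.952% (exact permutation p = 0.0857). RNAs that stay in the nucleus were higher by fold for 9 of 9 tested, with a summed level of 4867 to 9670 CPM among *Atm*-WT and 10213 to 15870 CPM among *Atm*-KO mice. Of the glial lists, 12 of 12 markers of astrocytes and Bergmann glia were lower by fold (summed 6326 to 7109 against 5515 to 6402 CPM), as were 11 of 12 of oligodendrocytes (3685 to 4735 against 2208 to 3793 CPM) and 10 of 10 of microglia (146 to 199 against 113 to 149 CPM). Outside the glia, 9 of 9 markers of choroid plexus (818 to 1620 against 446 to 1262 CPM, median log2 fold change −0.60), 9 of 9 of mural cells (225 to 275 against 172 to 228 CPM, median −0.29), 6 of 10 of endothelial cells (307 to 340 against 251 to 328 CPM, median −0.20) and 5 of 8 of meningeal fibroblasts (96.8 to 129.8 against 86.6 to 112 CPM, median −0.13) were lower by fold, and 6 of 6 of red blood cells higher (7.01 to 44.4 against 9.11 to 50.9 CPM, median 0.52). Markers of granule cells, the main neuron of the cerebellum, were higher by fold for 9 of 12 (6517 to 7715 against 6894 to 9245 CPM) and those of Purkinje cells lower for 10 of 12 (10028 to 12250 against 9906 to 11691 CPM), and none of these lists held a marker at 0. In *Atm*-KO mouse 12M the oligodendrocyte sum was 2208 CPM, against 3515 to 3793 CPM in the other *Atm*-KO mice. The part of these measures in the results below was not tested, and in bulk tissue fewer cells of a type and less RNA per cell cannot be told apart.

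Levels spanned a wide range between genes of the pathway and are compared here per length, as CPM per kilobase of the canonical transcript (mean and range of 4 *Atm*-WT mice). The highest was *Mdh1*, the malate dehydrogenase of the cytosol, at 179 (166 to 202) CPM per kilobase, followed by *Mdh2*, its mitochondrial counterpart, at 121 (114 to 131). The ranges of the pair did not overlap. *Idh3b*, a subunit of the NAD-dependent isocitrate dehydrogenase, at 83.1 (76.2 to 90.6), and *Cs*, citrate synthase, at 80.7 (78.4 to 82.1) came next and overlapped each other. *Idh3a*, at 66.2 (60.7 to 74.6), and *Pdha1*, the catalytic alpha subunit of PDH, at 64.6 (59.9 to 69.8), overlapped as well. The lowest were the carriers *Slc25a10* at 2.03 (1.92 to 2.17) and *Slc25a13* at 1.75 (1.27 to 2.48), whose ranges also overlapped. This order depended on the length. With all exons of a gene joined, *Mdh1* was again highest, at 95.5 CPM per kilobase, but *Cs* at 37.5, *Ogdh*, a subunit of oxoglutarate dehydrogenase, at 37.3 and *Pdha1* at 34.7 came before *Mdh2* at 33.8, the 4 overlapping each other. At the low end *Slc25a13* was again lowest, at 0.727, and *Me3*, a mitochondrial malic enzyme, at 1.26 was below *Slc25a10* at 1.41. Within a genotype the spread between mice was small, with a median coefficient of variation over the 38 genes of 7.44% among *Atm*-WT and 6.69% among *Atm*-KO mice.

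**Figure D1:**
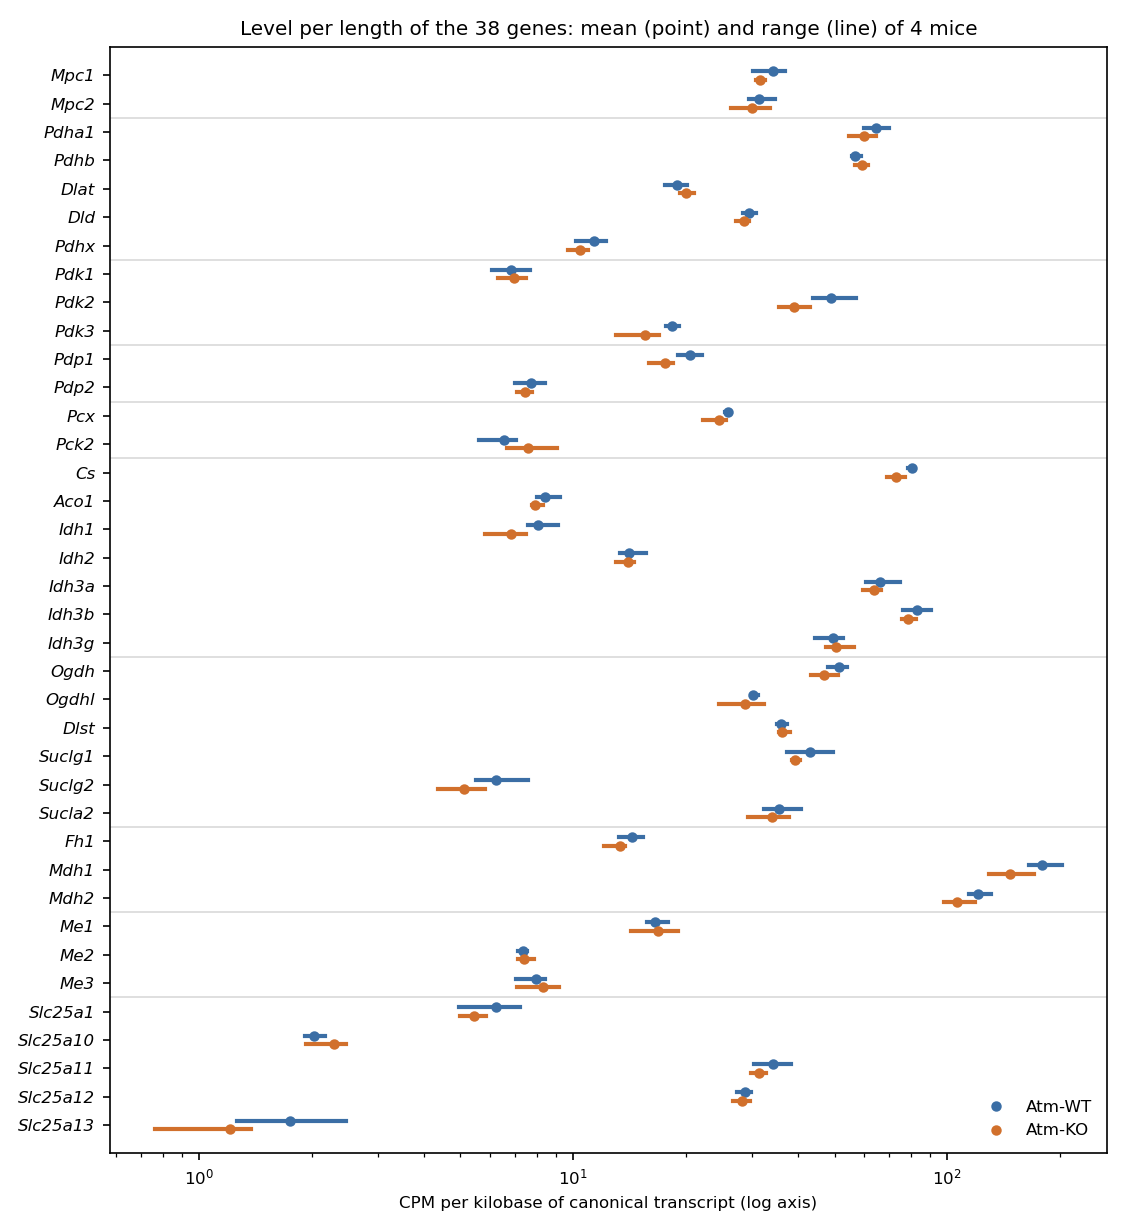
Level of each gene as CPM per kilobase of canonical transcript on a log axis, with the mean of 4 mice as a point and their range as a line, for *Atm*-WT in blue and *Atm*-KO in orange; grey lines part the steps of the pathway. *Mdh1* and *Mdh2* stand highest, at 179 and 121 in *Atm*-WT mice, and *Slc25a13* lowest at 1.75, an order in which *Mdh2* falls to rank 5 of 38 with all exons joined as the length.

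Between genotypes the differences were small. By the sign of the fold, 28 of the 38 genes (73.7%) were lower and 10 higher in *Atm*-KO cerebella, against 53.1% lower over all genes tested, 63.8% over protein-coding genes and 66.1% over genes with a mean of at least 10 CPM, a level that 36 of the 38 reached. The median log2 fold change was −0.082, against −0.018 over all genes tested, −0.061 over protein-coding genes and −0.057 over genes with a mean of at least 10 CPM. At an adjusted p under 0.05, edgeR called 0 of the 38 genes, with 0.0178% of all genes called, and the adjusted p of the 38 ran from 0.117 to 0.970. DESeq2's Wald test called 1 of them, *Pdk2* (adjusted p = 0.0395 in DESeq2), with 7.49% of its genes called. At an unadjusted p under 0.05 in edgeR, 9 of the 38 (23.7%) were lower, against 8.48% of all genes tested, 11.7% of protein-coding genes and 14.4% of genes with a mean of at least 10 CPM. None of the 38 was higher at that level, where 11.7% of all genes and 8.14% of those with a mean of at least 10 CPM were. In 5 genes (13.2%) all *Atm*-KO mice lay below all *Atm*-WT mice, against 5.12% of all genes and 8.42% of those with a mean of at least 10 CPM. The opposite separation was seen in 0 of the 38, against 6.47% and 4.99%. In 17 other ways of fitting, the sign of 27 of the 38 genes never changed, 22 lower and 5 higher, while that of *Mpc2*, *Pdk1*, *Pdp2*, *Idh2*, *Idh3a*, *Idh3g*, *Dlst*, *Sucla2*, *Me1*, *Me2* and *Slc25a12* changed in at least 1. The counts depended on the fit and on single mice. Without *Atm*-KO mouse 12M or 1M, the libraries with the highest TEC shares, 4 and 5 of the 38 (10.5% and 13.2%) were lower at an unadjusted p under 0.05 in edgeR, against 6.01% and 5.67% of the genes in those fits. This count was 6 (15.8%) without *Atm*-KO mouse 7F, which had the lowest TEC share of its genotype, and 6 without 11M, against 7.81% and 6.33%. With an *Atm*-WT mouse left out it ran from 6 (15.8%, against 7.26%, without 13M) to 11 (28.9%, against 8.63%, without 7M). Without *Atm*-WT mouse 7M, 10 of the 38 (26.3%) had every *Atm*-KO mouse below the remaining *Atm*-WT mice, against 8.32% of all genes and 12.8% of those with a mean of at least 10 CPM. Without *Atm*-KO mouse 7F these were 8 (21.1%, against 9.48% and 15.4%) and without *Atm*-WT mouse 13M 7 (18.4%, against 8.34% and 12.3%), and in each 1 gene (2.63%) was separated the other way, against 11.6% and 9.43% of all genes. With library size alone as scaling, 1 of the 38 (2.63%) was separated downwards, against 2.64% of all genes, and 1 upwards, against 8.35%. Fitted on protein-coding genes alone, 4 of the 38 (10.5%) were lower at an unadjusted p under 0.05 in edgeR, against 7.41% of the genes in that fit, and the median of the 38 was −0.040, against −0.018 over the genes of that fit.

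**Figure D2:**
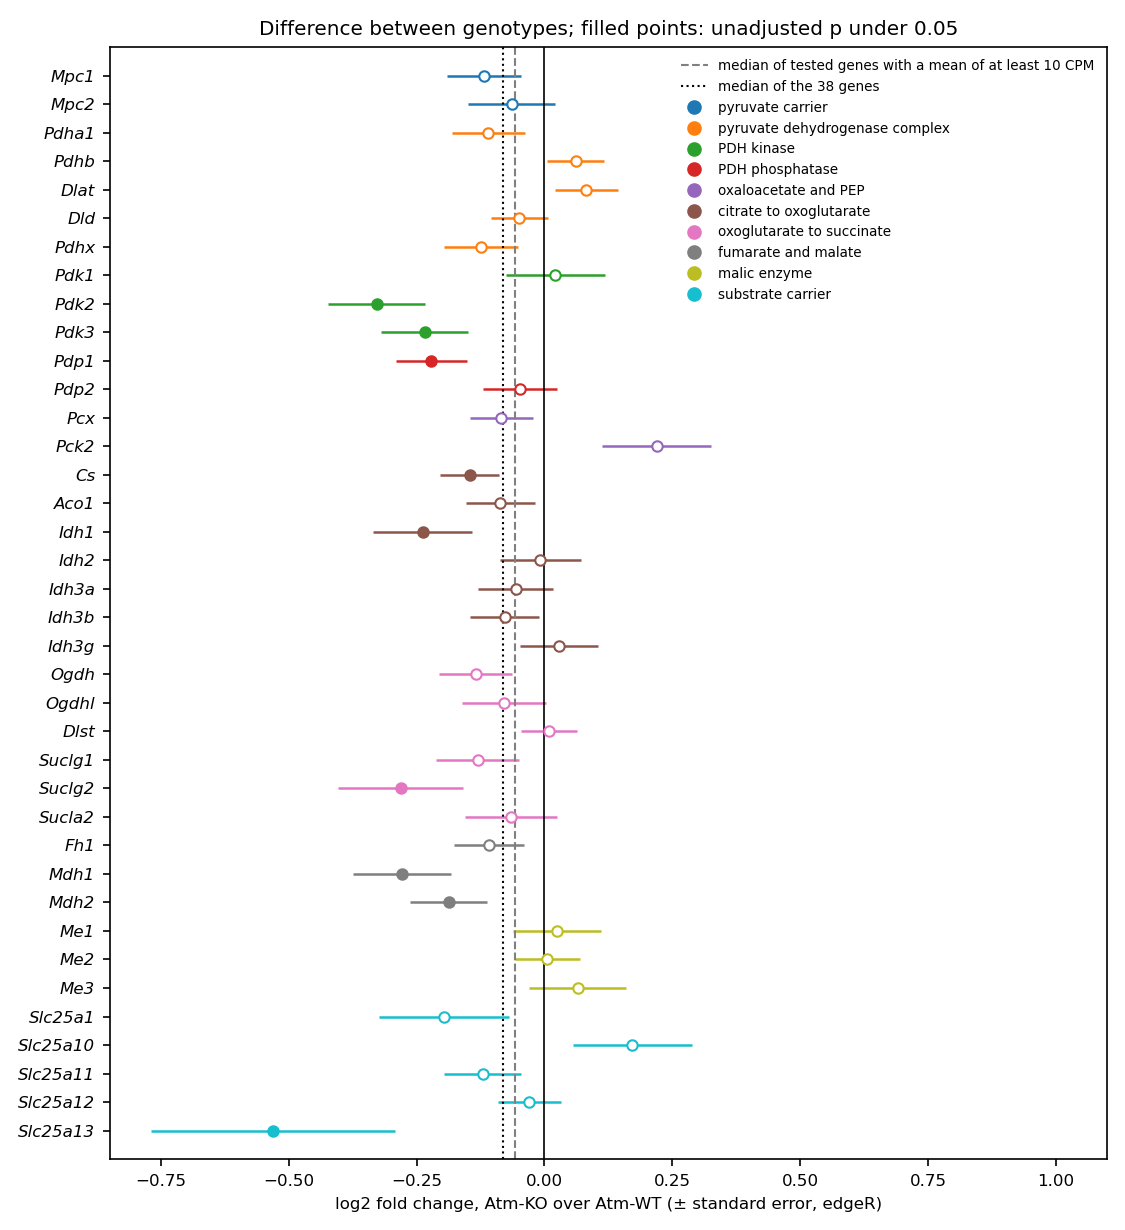
Log2 fold change of *Atm*-KO over *Atm*-WT for each of the 38 genes, with its standard error from edgeR, coloured by step and filled where the unadjusted p was under 0.05. All 9 filled points lie below 0, and the median of the 38 genes (dotted, −0.082) lies close to that of all genes with a mean of at least 10 CPM (dashed, −0.057).

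At the entry of pyruvate, neither carrier subunit nor any subunit of the PDH complex reached an unadjusted p under 0.05. *Mpc1*, a subunit of the pyruvate carrier, had 34.2 to 41.7 CPM among *Atm*-WT and 34.7 to 36.8 CPM among *Atm*-KO mice (log2 fold change −0.12, unadjusted p = 0.131 in edgeR). *Mpc2*, its partner, had 40.9 to 48.3 CPM among *Atm*-WT and 36.8 to 46.7 CPM among *Atm*-KO mice (log2 fold change −0.064, unadjusted p = 0.469 in edgeR). Both ranges overlapped between genotypes. In the PDH complex, the E1 subunit *Pdha1* had 172 to 200.02 CPM among *Atm*-WT and 157 to 184 CPM among *Atm*-KO mice (log2 fold change −0.11, unadjusted p = 0.150 in edgeR), and its partner in E1, *Pdhb*, had 84.6 to 89.5 CPM among *Atm*-WT and 86.4 to 93.6 CPM among *Atm*-KO mice (log2 fold change 0.061). The signs within E1 thus differed, with every range overlapping. *Dlat*, the acetyltransferase core E2, had 118 to 135 CPM among *Atm*-WT and 129.9 to 142 CPM among *Atm*-KO mice (log2 fold change 0.082). It lies 2.78 Mb from *Atm* on chromosome 9. *Dld*, the E3 subunit shared with the oxoglutarate dehydrogenase complex, had 128 to 138 CPM among *Atm*-WT and 122 to 133 CPM among *Atm*-KO mice (log2 fold change −0.049). *Pdhx*, which tethers E3 to the core, had 44.3 to 53.5 CPM among *Atm*-WT and 42.4 to 47.7 CPM among *Atm*-KO mice (log2 fold change −0.12). Over the 5 subunits the median was −0.049, with 3 lower and 2 higher by sign.

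The regulators of PDH had a median log2 fold change of −0.23 for the kinases and −0.13 for the phosphatases. Of the 3 kinases and 2 phosphatases, 3 were lower at an unadjusted p under 0.05, and in these the genotypes did not overlap, where 8.48% of all genes were lower at that level and 5.12% lower without overlap (14.4% and 8.42% of those with a mean of at least 10 CPM). A further kinase outside the 38 genes, *Pdk4*, which rises in fasting in many tissues, had 14.5 ± 3.57 CPM among *Atm*-WT and 9.32 ± 1.63 CPM among *Atm*-KO mice (log2 fold change −0.64, unadjusted p = 0.00355 and adjusted p = 0.111 in edgeR). Its genotypes did not overlap either, and its fold was larger and its unadjusted p lower than those of the regulators among the 38. *Pdpr*, the regulatory subunit of the PDH phosphatase and also outside the 38, had 68.4 ± 6.07 CPM among *Atm*-WT and 66.5 ± 1.91 CPM among *Atm*-KO mice. Its genotypes overlapped (log2 fold change −0.040, unadjusted p = 0.580 in edgeR). In the order of mice given at the start, *Pdk2*, the kinase most abundant per length here, had 132, 101, 105 and 113 CPM among *Atm*-WT mice and 81.7, 95.6, 82.2 and 99.1 CPM among *Atm*-KO mice. Every *Atm*-KO mouse was below the lowest *Atm*-WT mouse, with a narrow gap between *Atm*-KO mouse 12M and *Atm*-WT mouse 7M, and *Atm*-WT mouse 2M was the highest of all. The group levels were 113 ± 13.5 and 89.7 ± 8.998 CPM (SD, n = 4 each), with a log2 fold change of −0.33, a standard error of 0.095, unadjusted p = 0.00509 and adjusted p = 0.117 in edgeR. *Pdk3*, another PDH kinase, had 45.3, 43.5, 47.3 and 44.7 CPM among *Atm*-WT mice and 38.4, 41.4, 41.6 and 32.1 CPM among *Atm*-KO mice. The genotypes did not overlap, and *Atm*-KO mouse 12M was lowest (log2 fold change −0.23, standard error 0.085, unadjusted p = 0.0181 and adjusted p = 0.167 in edgeR). *Pdk1*, the kinase known as a target of hypoxia signalling, had 32.1 to 40.3 CPM among *Atm*-WT and 33.1 to 39.3 CPM among *Atm*-KO mice, with a log2 fold change of 0.021 and overlapping ranges. Of the phosphatases that reactivate PDH, the calcium-sensitive *Pdp1* had 89.2, 93.9, 103 and 97.5 CPM among *Atm*-WT mice and 85.3, 82.6, 86.6 and 74.6 CPM among *Atm*-KO mice. The genotypes did not overlap, and mouse 12M was again lowest (log2 fold change −0.22, standard error 0.069, unadjusted p = 0.00801 and adjusted p = 0.131 in edgeR). *Pdp2*, the other phosphatase, had 40.2 to 48.2 CPM among *Atm*-WT and 40.5 to 44.6 CPM among *Atm*-KO mice (log2 fold change −0.048). *Pdk2* and *Pdk3*, which inactivate PDH, and *Pdp1*, which activates it, thus had folds of the same sign. *Pdk2* lies on chromosome 11 from 94914929 to 94932242 of GRCm39, *Pdk3* on chromosome X from 92789513 to 92876389 and *Pdp1* on chromosome 4 from 11957712 to 11966468. *Pdk2* overlaps *Samd14* on the opposite strand, which had a mean of 65.7 CPM among *Atm*-WT and 63.5 CPM among *Atm*-KO mice, and *Pdk3* overlaps *Pcyt1b* (38.1 and 36.1 CPM). Whether counting used strand is not stated, so reads of the partner cannot be told apart there, while *Pdp1* overlaps no gene on the opposite strand.

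**Figure D3:**
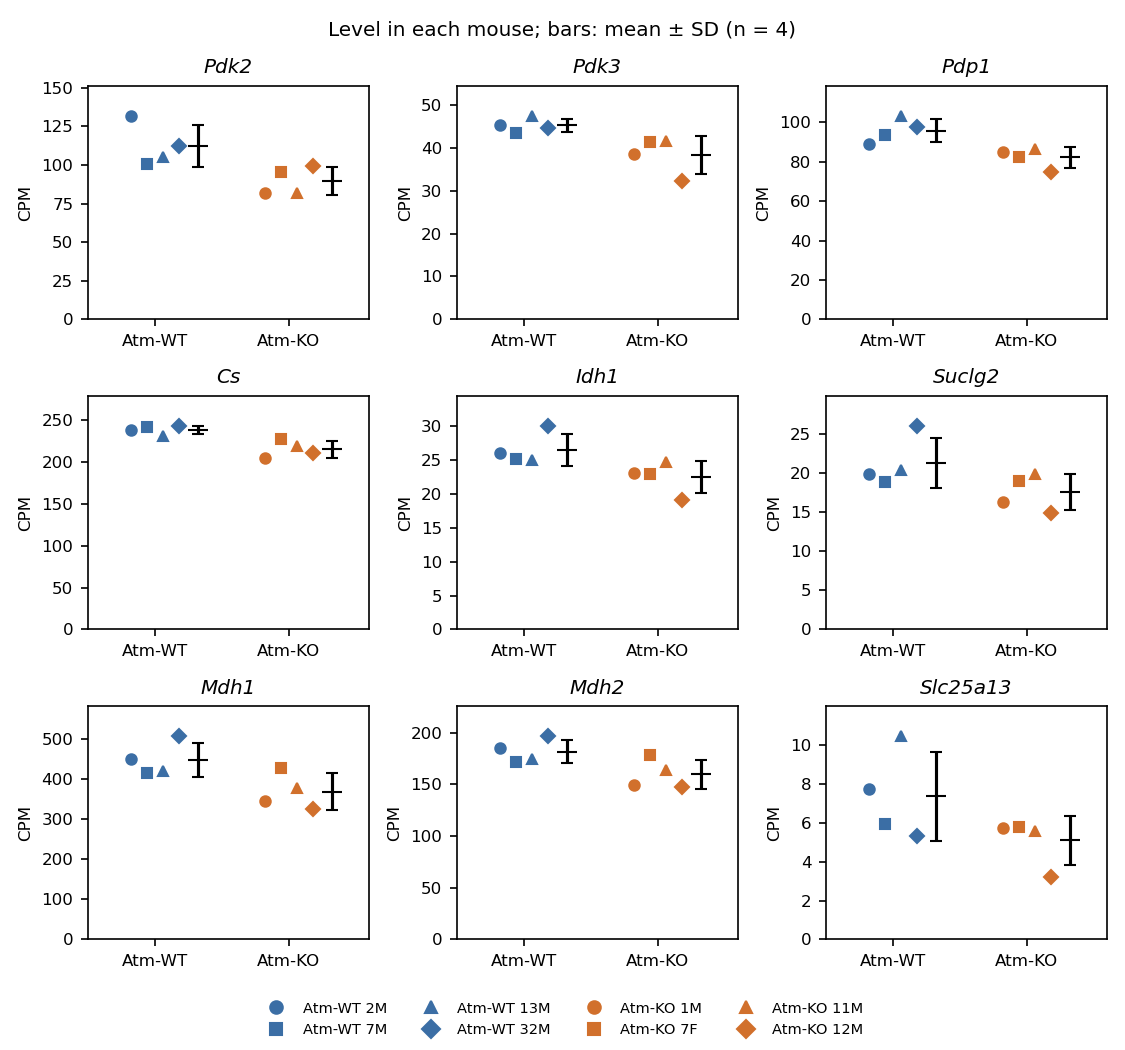
Level in CPM (from 0) of the 9 genes with an unadjusted p under 0.05, 1 symbol per mouse, *Atm*-WT in blue and *Atm*-KO in orange, with the mean and SD of 4 mice beside them. The genotypes are apart in *Pdk2*, *Pdk3*, *Pdp1*, *Cs* and *Idh1* and overlap in *Suclg2*, *Mdh1*, *Mdh2* and *Slc25a13*.

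The promoters of the genes without overlap between genotypes are shown because these genes had the same sign, *Pdk2* and *Pdk3* among the PDH kinases and *Cs* and *Idh1* between citrate and oxoglutarate. *Pdp1* had no entry in the promoter table used, and the other 4 are given 5′ to 3′ as 300 bases in RefSeq's GRCm38.p6 (250 before to 50 after the start). Capitals mark GGGCGG (the GC box) and CCAAT on either strand.
*Pdk2*, chr11:95041322-95041621, minus strand: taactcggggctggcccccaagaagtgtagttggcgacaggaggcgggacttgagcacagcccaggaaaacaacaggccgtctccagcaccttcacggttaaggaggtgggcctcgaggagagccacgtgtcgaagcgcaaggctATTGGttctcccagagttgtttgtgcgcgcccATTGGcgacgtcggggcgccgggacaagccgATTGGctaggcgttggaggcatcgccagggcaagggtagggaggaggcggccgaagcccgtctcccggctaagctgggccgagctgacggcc
*Pdk3*, chrX:93832101-93832400, minus strand: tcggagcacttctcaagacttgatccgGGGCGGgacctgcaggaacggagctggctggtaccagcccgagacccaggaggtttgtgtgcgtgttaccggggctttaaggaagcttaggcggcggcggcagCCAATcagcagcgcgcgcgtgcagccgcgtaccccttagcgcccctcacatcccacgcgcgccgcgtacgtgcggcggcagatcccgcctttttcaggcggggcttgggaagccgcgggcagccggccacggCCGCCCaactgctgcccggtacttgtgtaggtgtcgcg
*Cs*, chr10:128337477-128337776, plus strand: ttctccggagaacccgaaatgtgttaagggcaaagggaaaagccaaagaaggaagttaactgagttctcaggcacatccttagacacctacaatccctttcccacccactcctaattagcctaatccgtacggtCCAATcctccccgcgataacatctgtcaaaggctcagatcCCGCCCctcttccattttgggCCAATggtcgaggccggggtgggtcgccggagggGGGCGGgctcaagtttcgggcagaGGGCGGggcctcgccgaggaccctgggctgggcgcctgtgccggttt
*Idh1*, chr1:65186430-65186729, minus strand: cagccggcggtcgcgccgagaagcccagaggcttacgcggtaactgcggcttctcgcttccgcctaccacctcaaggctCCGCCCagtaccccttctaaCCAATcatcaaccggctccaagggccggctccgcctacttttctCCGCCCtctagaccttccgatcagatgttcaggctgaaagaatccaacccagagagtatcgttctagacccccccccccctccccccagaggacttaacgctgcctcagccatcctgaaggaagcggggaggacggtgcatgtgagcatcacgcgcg
*Pdk3* held 2 GC boxes and 1 CCAAT motif, *Cs* 3 and 2, *Idh1* 2 and 1, and *Pdk2* 0 and 3. Of the 35 genes with a promoter in the table, 26 held GGGCGG and 22 held CCAAT, which 35.7% and 37.4% of all 32851 promoters hold. The 4 promoters shown had 58.7% to 68.0% GC, against a median of 52.7% over all promoters. The shares over all promoters were not matched for GC content or expression. ACGTG, the core of the hypoxia response element, stood in 11 of 35 and in 19.6% of all promoters, and was counted on both strands, so that CACGTG counts for each. AAGGTCA, a nuclear receptor half-site, stood in 0 of 35 and in 4.72% of all. The promoters of *Pdk2* and *Pdk3* held ACGTG, and those of *Cs* and *Idh1* did not. A match is a match of letters and not a measured binding site.

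The entries that refill or drain oxaloacetate had opposite signs. *Pcx*, pyruvate carboxylase, had 108 to 112 CPM among *Atm*-WT and 94.1 to 109 CPM among *Atm*-KO mice (log2 fold change −0.084, unadjusted p = 0.195 in edgeR). *Pck2*, the mitochondrial phosphoenolpyruvate carboxykinase, which turns oxaloacetate into phosphoenolpyruvate, had 32.6, 25.9, 32.2 and 29.9 CPM among *Atm*-WT mice and 35.4, 30.9, 32.4 and 41.8 CPM among *Atm*-KO mice. It had the largest positive fold of the 38 genes, with *Atm*-KO mice 12M and 1M above every *Atm*-WT mouse and 7F and 11M within their range (log2 fold change 0.22, standard error 0.11, unadjusted p = 0.0619 and adjusted p = 0.270 in edgeR). Without 12M the fold was 0.12, unadjusted p = 0.212 in edgeR, and without 7F it was 0.29, unadjusted p = 0.0216 in edgeR. In 7 of the 17 other fits the unadjusted p was under 0.05.

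From citrate to oxoglutarate, 6 of 7 genes were lower by sign, against 53.1% of all genes and 66.1% of those with a mean of at least 10 CPM. Of the 7, 2 were lower without overlap, against 5.12% and 8.42%. *Cs*, the first enzyme of the cycle, had 238, 242, 231 and 242 CPM among *Atm*-WT mice and 204, 228, 219 and 210.4 CPM among *Atm*-KO mice. The *Atm*-WT mice lay close together and the *Atm*-KO mice below them, with 7F nearest (238 ± 4.996 and 215 ± 10.2 CPM, SD, n = 4 each, log2 fold change −0.15, standard error 0.058, unadjusted p = 0.0271 and adjusted p = 0.192 in edgeR). *Idh1*, the NADP-dependent isocitrate dehydrogenase of the cytosol, had 26.1, 25.2, 25.0 and 30.0 CPM among *Atm*-WT mice and 23.1, 23.0, 24.7 and 19.1 CPM among *Atm*-KO mice. The gap between *Atm*-WT mouse 13M and *Atm*-KO mouse 11M was narrow, and the ends were *Atm*-WT mouse 32M and *Atm*-KO mouse 12M (log2 fold change −0.24, standard error 0.096, unadjusted p = 0.0298 and adjusted p = 0.200 in edgeR). *Idh2*, the mitochondrial NADP-dependent form, had 23.3 to 27.4 CPM among *Atm*-WT and 22.8 to 25.4 CPM among *Atm*-KO mice, with a log2 fold change of −0.0079. *Aco1*, the cytosolic aconitase that also acts as an iron sensor, had 36.7 to 42.4 CPM among *Atm*-WT and 35.5 to 38.03 CPM among *Atm*-KO mice (log2 fold change −0.086). The NAD-dependent enzyme of the cycle is built from *Idh3a*, *Idh3b* and *Idh3g*. Its catalytic subunit *Idh3a* had 157 to 193 CPM among *Atm*-WT and 154 to 172 CPM among *Atm*-KO mice (log2 fold change −0.056). *Idh3b* had 123 to 146 CPM among *Atm*-WT and 122 to 134 CPM among *Atm*-KO mice (log2 fold change −0.078), and *Idh3g* had 69.97 to 82.9 CPM among *Atm*-WT and 74.5 to 89.1 CPM among *Atm*-KO mice (log2 fold change 0.028). All 3 overlapped between genotypes. *Idh3a* lies 1.05 Mb from *Atm* and overlaps *Acsbg1* on the opposite strand, a gene expressed in astrocytes that had 216 CPM among *Atm*-WT and 190 CPM among *Atm*-KO mice (log2 fold change −0.19, unadjusted p = 0.0111 in edgeR). *Cs* lies on chromosome 10 from 128172837 to 128198363 of GRCm39 and overlaps *Coq10a* (19.6 and 20.7 CPM), and *Idh1*, on chromosome 1 from 65196781 to 65225721, overlaps no gene on the opposite strand.

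From oxoglutarate to succinate, 5 of 6 genes were lower by sign, against 53.1% of all genes and 66.1% of those with a mean of at least 10 CPM. *Ogdh*, the E1 subunit of oxoglutarate dehydrogenase, had 366, 366, 341 and 327 CPM among *Atm*-WT mice and 294, 347, 325 and 308 CPM among *Atm*-KO mice. The ranges overlapped, with *Atm*-KO mouse 1M lowest (log2 fold change −0.13, standard error 0.071, unadjusted p = 0.0851 and adjusted p = 0.312 in edgeR). Without *Atm*-WT mouse 32M the fold was −0.17, unadjusted p = 0.0398 in edgeR. *Ogdhl*, its brain-enriched paralog, had 150.2 to 157 CPM among *Atm*-WT and 123 to 163 CPM among *Atm*-KO mice (log2 fold change −0.079), and *Dlst*, the E2 subunit, had 118 to 125 CPM among *Atm*-WT and 119 to 127 CPM among *Atm*-KO mice (log2 fold change 0.0090). Succinyl-CoA ligase has a shared alpha subunit, *Suclg1*, which had 56.7 to 75.1 CPM among *Atm*-WT and 58.5 to 61.5 CPM among *Atm*-KO mice (log2 fold change −0.13). Its GTP-forming beta subunit *Suclg2* had 19.9, 18.9, 20.4 and 26.0 CPM among *Atm*-WT mice and 16.3, 19.0, 19.9 and 14.9 CPM among *Atm*-KO mice. *Atm*-WT mouse 32M was highest and *Atm*-KO mouse 12M lowest, and mice 7F and 11M lay within the *Atm*-WT range (log2 fold change −0.28, standard error 0.12, unadjusted p = 0.0420 and adjusted p = 0.230 in edgeR). Without 32M the fold was −0.17, unadjusted p = 0.144 in edgeR, and with a surrogate variable in the fit it was −0.16, unadjusted p = 0.145 in edgeR. The ATP-forming beta subunit *Sucla2*, typical of neurons, had 96.6 to 121 CPM among *Atm*-WT and 87.8 to 113 CPM among *Atm*-KO mice (log2 fold change −0.065).

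All 3 genes from fumarate to oxaloacetate were lower by sign, with a median log2 fold change of −0.19. Of all genes 53.1% were lower by sign, and of those with a mean of at least 10 CPM 66.1%. *Fh1*, fumarate hydratase, had 70.1 to 81.2 CPM among *Atm*-WT and 64.1 to 73.0 CPM among *Atm*-KO mice (log2 fold change −0.11, unadjusted p = 0.138 in edgeR). *Mdh1* had 452, 415, 419 and 507 CPM among *Atm*-WT mice and 346, 428, 378 and 325 CPM among *Atm*-KO mice. Mouse 7F lay within the *Atm*-WT range and the other *Atm*-KO mice below it (448 ± 42.5 and 369 ± 45.2 CPM, SD, n = 4 each, log2 fold change −0.28, standard error 0.096, unadjusted p = 0.0139 and adjusted p = 0.154 in edgeR). *Mdh2* had 185, 172, 175 and 197 CPM among *Atm*-WT mice and 149.96, 178, 164 and 147 CPM among *Atm*-KO mice. The mice took the same places as for *Mdh1*, with 7F among the *Atm*-WT mice and 32M the highest (182 ± 11.3 and 159.8 ± 14.2 CPM, SD, n = 4 each, log2 fold change −0.19, standard error 0.075, unadjusted p = 0.0294 and adjusted p = 0.199 in edgeR). *Mdh1*, on chromosome 11 from 21506423 to 21522367, overlaps *Wdpcp* on the opposite strand (8.03 and 7.57 CPM), far below the level of *Mdh1* itself, and *Mdh2*, on chromosome 5 from 135807292 to 135820882, overlaps none.

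The malic enzymes, which turn malate into pyruvate, had folds close to 0, with none of the 3 lower by sign, although the signs of *Me1* and *Me2* turned in some alternatives. *Me1*, the cytosolic NADP form, had 65.6 to 74.7 CPM among *Atm*-WT and 59.5 to 79.2 CPM among *Atm*-KO mice (log2 fold change 0.024). *Me2*, the mitochondrial form that can use NAD, had 35.5 to 37.6 CPM among *Atm*-WT and 35.5 to 39.2 CPM among *Atm*-KO mice (log2 fold change 0.0057). *Me3*, the mitochondrial NADP form, had 32.3 to 38.7 CPM among *Atm*-WT and 32.7 to 42.2 CPM among *Atm*-KO mice (log2 fold change 0.065). The unadjusted p of the 3 lay between 0.506 and 0.930 in edgeR.

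Of the 5 substrate carriers, 4 were lower by sign, against 53.1% of all genes and 66.1% of those with a mean of at least 10 CPM. *Slc25a12* and *Slc25a13* are the aspartate-glutamate carriers of the malate-aspartate shuttle. *Slc25a12*, the form of neurons, had 174 to 189.6 CPM among *Atm*-WT and 169.9 to 189 CPM among *Atm*-KO mice (log2 fold change −0.030). *Slc25a13* had 7.73, 5.94, 10.4 and 5.33 CPM among *Atm*-WT mice and 5.74, 5.80, 5.60 and 3.21 CPM among *Atm*-KO mice. Its fold was the largest in size of the 38 genes and the only one over 0.5 on the log2 scale, but it was also the least precise, with the highest *Atm*-WT mouse, 13M, far above the lowest, 32M, and 3 of the 4 *Atm*-KO mice inside the *Atm*-WT range (log2 fold change −0.53, standard error 0.24, unadjusted p = 0.0468 and adjusted p = 0.241 in edgeR). Without 13M the fold was −0.30, unadjusted p = 0.206 in edgeR, and without *Atm*-KO mouse 12M it was −0.37, unadjusted p = 0.103 in edgeR. It was larger without *Atm*-WT mouse 32M, at −0.66, unadjusted p = 0.0174 in edgeR, and without 7M, at −0.63, unadjusted p = 0.0311 in edgeR. *Slc25a11*, the oxoglutarate-malate carrier of the same shuttle, had 52.7 to 66.1 CPM among *Atm*-WT and 51.5 to 56.5 CPM among *Atm*-KO mice (log2 fold change −0.12). *Slc25a1*, which exports citrate, had 12.1, 11.2, 9.10 and 13.2 CPM among *Atm*-WT mice and 9.26, 10.7, 10.7 and 9.19 CPM among *Atm*-KO mice. The ranges overlapped (log2 fold change −0.20, standard error 0.13, unadjusted p = 0.151 and adjusted p = 0.407 in edgeR), and without *Atm*-WT mouse 32M the fold was −0.12, unadjusted p = 0.373 in edgeR. Without *Atm*-WT mouse 13M it was −0.28, unadjusted p = 0.0387 in edgeR. *Slc25a10*, the dicarboxylate carrier, had 8.68, 7.68, 7.83 and 8.32 CPM among *Atm*-WT mice and 9.26, 7.69, 9.83 and 9.86 CPM among *Atm*-KO mice. Mouse 7F lay at the low end of the *Atm*-WT range, and the other *Atm*-KO mice were above every *Atm*-WT mouse (log2 fold change 0.17, standard error 0.12, unadjusted p = 0.164 and adjusted p = 0.425 in edgeR). Without 7F the fold was 0.27, unadjusted p = 0.0431 in edgeR.

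Summed over the genes of a step, the 3 kinases without *Pdk4* had 209, 176, 193 and 197 CPM among *Atm*-WT and 159, 172, 163 and 164 CPM among *Atm*-KO mice, and the phosphatases had 134, 137, 151 and 138 CPM among *Atm*-WT and 129, 125, 127 and 119 CPM among *Atm*-KO mice. These were the 2 steps of 10 whose sums did not overlap between genotypes. The sum from fumarate to oxaloacetate was 712, 656, 671 and 785 CPM among *Atm*-WT and 568, 679, 615 and 536 CPM among *Atm*-KO mice, where 7F alone of the *Atm*-KO mice reached the *Atm*-WT range. The sum over the PDH complex was 547, 572, 600.1 and 606 CPM among *Atm*-WT and 566, 598, 574 and 543 CPM among *Atm*-KO mice, with the genotypes mixed. Over all 38 genes the sums were 3760, 3658, 3747 and 3964 CPM among *Atm*-WT and 3427, 3710, 3579 and 3333 CPM among *Atm*-KO mice. *Atm*-KO mice 12M and 1M had the lowest sums, and they also had the highest TEC shares (0.529% and 0.513%) and nuclear RNA sums (15605 and 15870 CPM). *Atm*-WT mouse 32M had the highest sum, the lowest TEC share (0.204%) and the lowest nuclear RNA sum (4867 CPM). *Atm*-KO mouse 7F, the one within the *Atm*-WT range, had a TEC share of 0.354%, the lowest of its genotype. Mouse 7F was also the only one labelled F, and 12M had the smallest library (65967130 counts) and the lowest oligodendrocyte sum (2208 CPM). Whether any of these traits bears on the sums was not tested.

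**Figure D4:**
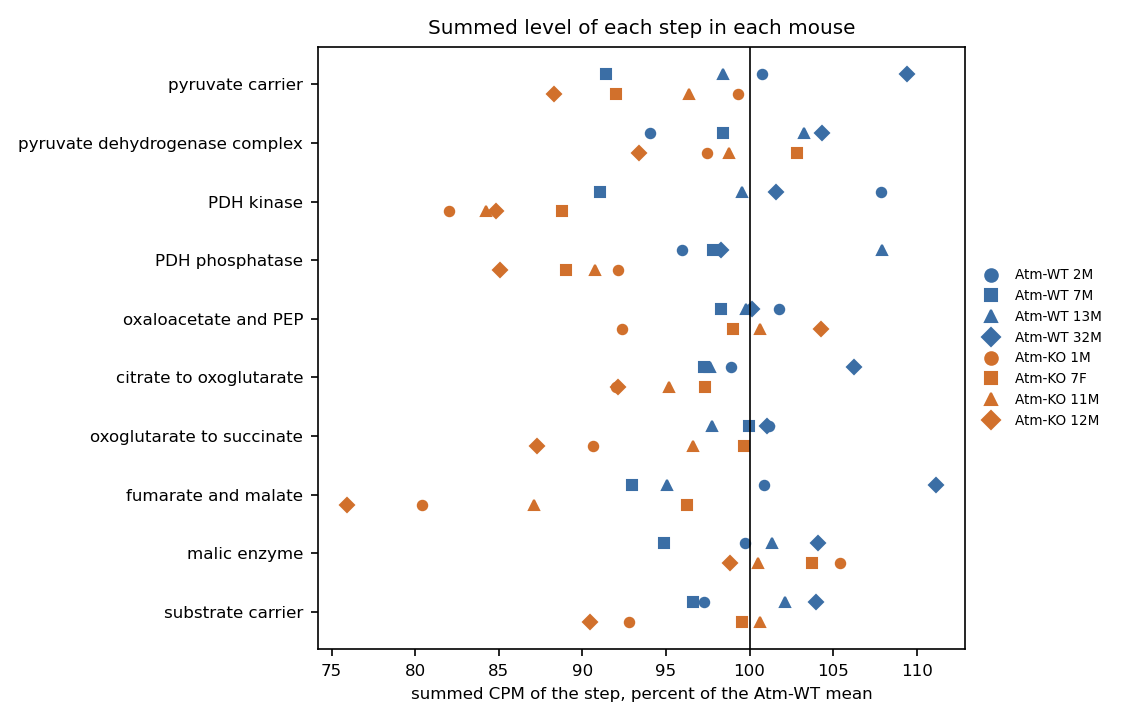
Summed CPM of the genes of each step in each mouse, as a percent of the mean of the 4 *Atm*-WT mice (vertical line at 100; the axis does not start at 0), with 1 symbol per mouse, *Atm*-WT in blue and *Atm*-KO in orange. The genotypes are apart for the PDH kinases and the PDH phosphatases and mixed for the PDH complex and the malic enzymes.

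Ratios within a library show whether paralogs or alternative subunits shifted against each other, independently of library scaling. Of 11 such pairs, 0 passed a two-sided exact permutation test of the log2 ratio, where 0.0286 is the smallest p possible. A pair reaches that p only when the genotypes do not overlap, and all 11 overlapped, so both statements are the same observation. After adjustment over 11 pairs, a single pair without overlap would also have stayed above an adjusted p of 0.05. The adjusted p therefore cannot decide whether a single pair shifted. *Suclg2* over *Sucla2* had log2 ratios of −2.38, −2.35, −2.34 and −2.23 among *Atm*-WT and −2.66, −2.57, −2.36 and −2.56 among *Atm*-KO mice (difference −0.21, two-sided exact permutation p = 0.0571, adjusted p = 0.314 over 11 pairs). *Mdh1* over *Mdh2* had log2 ratios of 1.29, 1.27, 1.26 and 1.37 among *Atm*-WT and 1.21, 1.27, 1.21 and 1.14 among *Atm*-KO mice (difference −0.093, two-sided exact permutation p = 0.0571, adjusted p = 0.314 over 11 pairs). In each a single *Atm*-KO mouse, 11M and 7F, lay within the *Atm*-WT range. *Pdp2* over *Pdp1* had log2 ratios of −0.98, −1.12, −1.10 and −1.28 among *Atm*-WT and −0.96, −0.97, −1.10 and −0.74 among *Atm*-KO mice (difference 0.18, two-sided exact permutation p = 0.0857, adjusted p = 0.314 over 11 pairs). For *Idh1* over *Idh2* they were −0.072, 0.037, 0.099 and 0.36 among *Atm*-WT and −0.090, 0.014, −0.040 and −0.40 among *Atm*-KO mice (difference −0.23, two-sided exact permutation p = 0.114, adjusted p = 0.314 over 11 pairs). For *Pdk1* over *Pdk2* they were −2.03, −1.65, −1.39 and −1.51 among *Atm*-WT and −1.08, −1.45, −1.06 and −1.58 among *Atm*-KO mice (difference 0.35, two-sided exact permutation p = 0.143, adjusted p = 0.314 over 11 pairs). The other 6 pairs had an exact permutation p from 0.200 to 0.800. By level per length in *Atm*-WT mice, with the canonical transcript as length and in parentheses with all exons joined, *Pdk1* stood at 0.142 (0.317) and *Pdk3* at 0.380 (0.423) of *Pdk2*, *Pdp2* at 0.376 (0.436) of *Pdp1*, *Ogdhl* at 0.591 (0.422) of *Ogdh*, *Suclg2* at 0.174 (0.160) of *Sucla2* and *Slc25a13* at 0.0605 (0.0330) of *Slc25a12*. *Mdh1* stood at 1.48 (2.82) of *Mdh2*, *Mpc1* at 1.09 (2.04) of *Mpc2* and *Me1* at 2.09 (8.98) of *Me3*. *Idh1* stood at 0.575 (1.38) of *Idh2* and *Me2* at 0.929 (2.87) of *Me3*, where the order itself depended on the length.

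**Figure D5:**
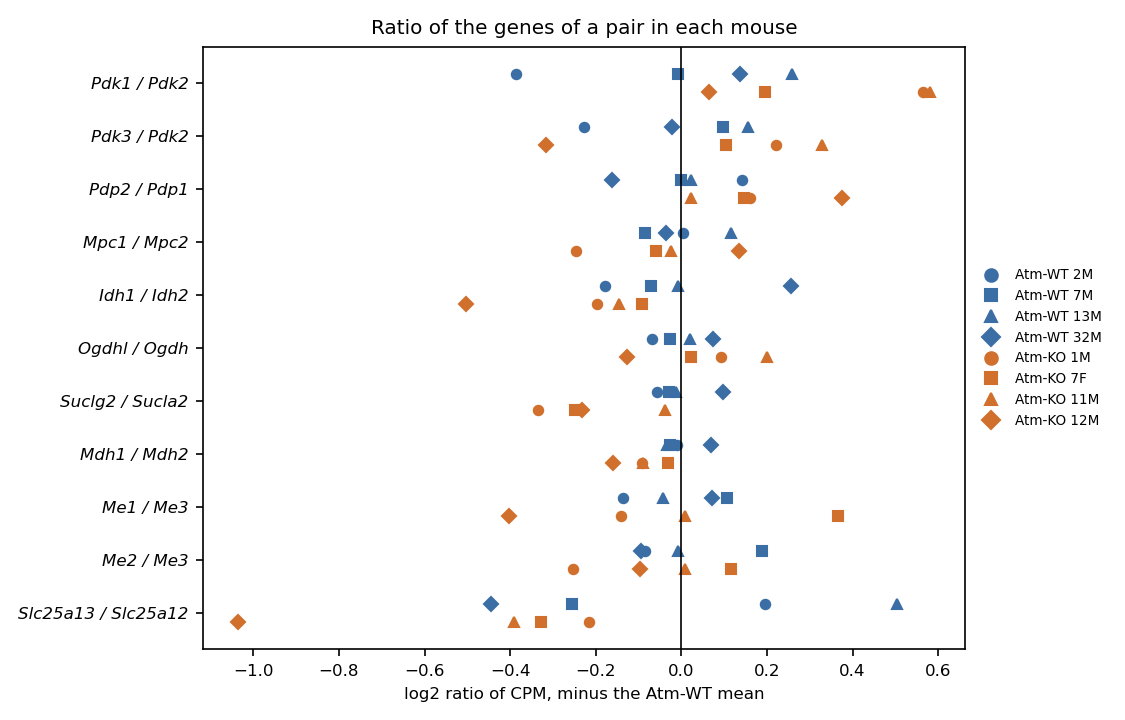
Log2 ratio of CPM between the genes of each of 11 pairs in each mouse, minus the mean ratio of the 4 *Atm*-WT mice, *Atm*-WT in blue and *Atm*-KO in orange, 1 symbol per mouse. The genotypes overlap in all 11 pairs, least so for *Suclg2* over *Sucla2* and *Mdh1* over *Mdh2*.

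A separate list of 48 genes around the same pathway (succinate dehydrogenase and its assembly factors, lactate dehydrogenases, transaminases, glutamate and acetate enzymes, lipoate synthesis, further carriers and sirtuins) had 47 tested, of which 32 were lower and 15 higher by sign, with a median log2 fold change of −0.059. At an adjusted p under 0.05 edgeR called 0 of them, and at an unadjusted p under 0.05 12 were lower (25.5%) and 3 higher (6.38%), beside 8.48% and 11.7% of all genes tested and 14.4% and 8.14% of those with a mean of at least 10 CPM. *Sdha*, the catalytic subunit of succinate dehydrogenase, which sits between the succinate and fumarate steps above, had 381 ± 16.1 CPM among *Atm*-WT and 323 ± 21.7 CPM among *Atm*-KO mice (log2 fold change −0.24, unadjusted p = 0.00468 and adjusted p = 0.116 in edgeR). *Ldhb*, the lactate dehydrogenase subunit that favours pyruvate formation, had 350.1 ± 28.7 CPM among *Atm*-WT and 287 ± 24.3 CPM among *Atm*-KO mice (log2 fold change −0.29, unadjusted p = 0.00414 and adjusted p = 0.115 in edgeR). *Got1*, the cytosolic aspartate aminotransferase that works beside *Mdh1* in the malate-aspartate shuttle, had 249 ± 13.7 CPM among *Atm*-WT and 216 ± 28.7 CPM among *Atm*-KO mice (log2 fold change −0.21, unadjusted p = 0.0460 and adjusted p = 0.240 in edgeR), and *Got2*, its mitochondrial partner beside *Mdh2*, had 185 ± 7.74 CPM among *Atm*-WT and 166 ± 14.3 CPM among *Atm*-KO mice (log2 fold change −0.16, unadjusted p = 0.0406 and adjusted p = 0.226 in edgeR). *Gpt*, an alanine aminotransferase that makes pyruvate in the cytosol, had 7.87 ± 1.11 CPM among *Atm*-WT and 10.6 ± 0.510 CPM among *Atm*-KO mice (log2 fold change 0.42, unadjusted p = 0.00503 and adjusted p = 0.116 in edgeR), and *Gpt2*, the mitochondrial form, had 66.6 ± 6.55 CPM among *Atm*-WT and 54.0 ± 5.57 CPM among *Atm*-KO mice (log2 fold change −0.30, unadjusted p = 0.00682 and adjusted p = 0.125 in edgeR). The aminotransferases of alanine thus had folds of opposite sign, a difference between them that was not tested. *Acss2*, the nuclear and cytosolic acetyl-CoA synthetase, had 51.9 ± 3.95 CPM among *Atm*-WT and 60.3 ± 3.94 CPM among *Atm*-KO mice (log2 fold change 0.22, unadjusted p = 0.0139 and adjusted p = 0.154 in edgeR), and *Acss1*, its mitochondrial counterpart, had 21.1 ± 2.91 CPM among *Atm*-WT and 17.9 ± 1.497 CPM among *Atm*-KO mice (log2 fold change −0.24, unadjusted p = 0.0491 and adjusted p = 0.245 in edgeR).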

How the data were processed

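Cerebellar RNA of 4 *Atm*-WT and 4 *Atm*-KO mice was sequenced through Novogene. Per the labels the authors checked reads with FastQC 0.11.9, aligned them to GRCm39 with STAR and counted them with featureCounts, and they deposited raw counts per gene without normalization. Strand and pair settings are not given in the sources used here, so a count may be a read or a fragment. Groups follow the genotype in the labels. Identifiers were matched without version to GENCODE vM39 (56017 of 56691, 98.8%). Genes were kept by filterByExpr (22423), normalized by TMM and tested with edgeR 4.0.16 in R 4.3.3 (glmQLFit and glmQLFTest, Benjamini-Hochberg adjustment, no covariate). The procedure was tried on simulated counts with a common dispersion for all genes and changes larger than any fold of the 38. That trial did not cover changes of the size seen here. A level of 1 CPM stands for at least 65 counts in each library, and the 38 genes had at least 217. How far depth limits precision beside the spread between mice was not tested. Ratios of pairs were compared by two-sided exact permutation tests. Promoter sequences come from RefSeq on GRCm38.p6 (35 of the 38 genes), and gene positions from GRCm39.

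The genes described and the lists were chosen with earlier results of these data known. All 38 genes are accounted for. Those with an unadjusted p under 0.05 or without overlap, and the 2 largest and 2 smallest folds of the rest, have their value in every mouse, and the others their range. Genes outside the 38 were chosen for naming after their values were seen. Alternatives were DESeq2 1.42.0, limma voom (limma 3.58.1), other scalings and filters, protein-coding genes alone, mitochondrial genes left out, a surrogate variable (sva 3.50.0) and each library left out. Joined exons as the length were chosen after seeing the data.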

Additional observations from a re-analysis of the deposited data

Results flagged for a closer look

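Dixon's test at its 95% limit was applied to the 4 mice of each genotype for the levels of the genes and the ratios of the pairs. Of 98 groups, 4 held a mouse beyond the limit, where chance gives about 4.9. *Dlst* was 126.9 CPM in *Atm*-KO mouse 1M and 118.6 to 119.8 CPM in the other *Atm*-KO mice. *Fh1* was 64.1 CPM in *Atm*-KO mouse 12M and 71.6 to 73.0 CPM in the others of that genotype. *Slc25a13* was 3.21 CPM in *Atm*-KO mouse 12M and 5.60 to 5.80 CPM in the others. *Me3* was 32.3 CPM in *Atm*-WT mouse 7M and 37.6 to 38.7 CPM in the other *Atm*-WT mice.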

How the results depend on the processing

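No paired analysis was possible because the labels pair no mice and the genotypes share 1 number alone, 7, in 7M and 7F. The adjusted p called 0 of the 38 genes in edgeR under every alternative of that tool and without any library, and 1 (*Pdk2*) in DESeq2. The count of genes lower at an unadjusted p under 0.05, 9 in the reported fit, was 4 with library size alone, 4 with protein-coding genes alone, 4 with a surrogate variable and 5 with at least 10 counts in every library, where 4.66%, 7.41%, 6.36% and 7.13% of all genes in the fit were lower. It ran from 4 to 11 with a library left out, with 4 without *Atm*-KO mouse 12M and 5 without 1M, while the share over all genes ran from 5.67% to 8.63%. The count higher, 0 in the reported fit, was 2 with library size alone and 1 each without a filter, with at least 10 counts in every library and with protein-coding genes alone, where 14.6%, 8.90%, 13.8% and 9.42% of all genes were higher, and ran from 0 to 2 with a library left out, where the share over all genes ran from 7.90% to 13.8%. Genes without overlap in either direction, 5 as reported (13.2%, against 11.6% of all genes), were 2 with library size alone (5.26%, against 10.99%) and 5 to 10 with a library left out (13.2% to 26.3%, against 13.4% to 21.1% of all genes), where 3 mice against 4 overlap less easily by construction. The median log2 fold change of −0.082 was −0.034 with library size alone, where that of all genes was 0.031, −0.040 with protein-coding genes alone (all genes −0.018) and −0.049 with a surrogate variable (all genes −0.0013), and ran from −0.11 to −0.068 with a library left out. The 13 genes given mouse by mouse kept their sign in all 17 alternatives. At an unadjusted p under 0.05, *Pdk2*, *Pdp1* and *Mdh1* stayed in 17 of 17, *Pdk3* in 16, *Idh1* in 11, *Cs*, *Suclg2* and *Mdh2* in 8 and *Slc25a13* in 6. Of the 4 given mouse by mouse that missed it, *Pck2* passed in 7 of 17, and *Ogdh* (−0.17 without *Atm*-WT mouse 32M), *Slc25a1* (−0.28 without 13M) and *Slc25a10* (0.27 without *Atm*-KO mouse 7F) in 1 each. With a surrogate variable the log2 fold change was −0.14 for *Idh1*, −0.16 for *Pdk3*, −0.13 for *Slc25a1* and 0.12 for *Pck2*, and with library size alone that of *Ogdh* was −0.086. With a library left out, 4 differences of log2 ratios changed sign, *Mpc1* over *Mpc2* (−0.11 to 0.017), *Ogdhl* over *Ogdh* (−0.0032 to 0.11), *Me1* over *Me3* (−0.18 to 0.078) and *Me2* over *Me3* (−0.11 to 0.010). With joined exons as length, all 11 ratios of level per length moved by more than the spread between mice. Those of *Idh1* over *Idh2* and *Me2* over *Me3* turned to 1.38 and 2.87, and of the others *Me1* over *Me3* (2.09 to 8.98), *Pdk1* over *Pdk2* (0.142 to 0.317), *Mdh1* over *Mdh2* (1.48 to 2.82), *Mpc1* over *Mpc2* (1.09 to 2.04) and *Slc25a13* over *Slc25a12* (0.0605 to 0.0330) moved by over 1.5 times. The cause of these shifts was not tested.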
